A study of Drosophila melanogaster with 4 samples.

Results

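The noncoding RNA records of RefSeq on a Drosophila melanogaster expression array were compared between Hdac1 mutant and wild type larvae. A record was taken as noncoding where the array design gave its spots a RefSeq accession that starts with NR_, and control spots were left out. The rule found 87 records, of 25778 identifiers on the array, measured by 106 of its 32171 non-control probes, and 73 of the records had 1 probe. The records were long noncoding, antisense, small nuclear, small nucleolar and other structural RNAs. Of the 87, 63 could be matched to 58 genes of the RefSeq gene table of the Release 6 assembly, and 24 accessions had no match there and are given by accession. RNA came from whole larvae of the 3rd instar, grown at 25 °C, and was hybridised to 4 arrays that the labels call biological replicates. The mutant larvae had the genotype Hdac1[303]/Hdac1[def8] in the Oregon-R background, and their cDNA carried Alexa Fluor 647. The wild type larvae were Oregon-R, and their cDNA carried Alexa Fluor 555 on the same arrays. The dyes had 1 orientation on all 4 arrays, so a dye effect and the genotype cannot be told apart for a single probe. The transcript of Hdac1 itself was not analysed here, since the tables used pair none of the probes with it. The labels do not give the sex of the larvae or how many were pooled.

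Hdac1, also called Rpd3, removes acetyl groups from histone tails and works in the Sin3 and NuRD corepressor complexes. Noncoding RNAs act without being translated: small nuclear RNAs splice messengers, small nucleolar RNAs guide cleavage and modification of ribosomal RNA, and 7SL RNA carries the signal recognition particle. Long noncoding RNAs are mostly spliced or polyadenylated like messengers, and of those measured here the roX RNAs of dosage compensation and the heat-shock RNA Hsromega are among the best known. The cDNA was primed with oligo-dT from 15 µg of total RNA, which favours polyadenylated RNA. How structural RNAs without a poly(A) tail were primed is not given in the sources used here.

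On an array, 84.0% to 86.8% of the spots were well above background in the mutant channel and 84.8% to 86.5% in the wild type channel, and 0 spots were saturated. The array medians of spot intensity were 1490 to 1970.5 for the mutant dye and 316 to 504.25 for the wild type dye, a gap between the dyes that the normalization removes. Any 2 of the arrays had log2 ratios that correlated across probes at r = 0.925 to 0.958, and probes are not independent replicates. All 4 arrays lay on 1 slide and were read in 1 scan, so neither split them. P-values rest on the spread between these 4 arrays.

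Most noncoding RNA records were lower in the mutant. A log2 ratio is that of mutant over wild type on 1 array, centred by loess on the bulk of the array's probes, and a record is given by its brightest tested probe. Of 76 records tested, 48 (63.2%) fell and 10 (13.2%) rose at a limma adjusted p under 0.05, and the other 18 did not pass the test. Over all 21944 identifiers tested on the array, 37.5% were lower and 38.1% higher, so the share of lower records exceeded the array's and the share of higher records was below it. The median log2 ratio was -0.59 over the noncoding records and 0.02 over all identifiers. Counted by probe, 59 of 94 noncoding probes were lower and 10 higher, against 37.9% and 37.6% of all 27735 probes. The median was 0.06 over the 100 tested records of protein-coding transcripts (accessions that start with NM_), of which 34 were lower and 35 higher. These 100 are a small part of the 21944 identifiers and do not stand for all protein-coding transcripts on the array.

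Large changes were also mainly decreases. A fall of at least 2-fold was found for 25 records and a rise of at least 2-fold for 3, against 16.3% and 11.0% of all identifiers. At least 4-fold, 14 records were lower and 0 were higher, against 4.87% and 1.59% of all identifiers. With so few records, 0 rises of that size lies near the array's share. The mutant signals lay below all wild type signals for 44 records and above them for 8, where 31.0% of all identifiers lay in each position. With each array centred on its median in place of loess, 40 records were lower and 15 higher, so that 72.7% of the called records were lower, against 82.8% with loess. That centring moved the median over all probes to 0.12, against 0.01 with loess, and the noncoding median below it stayed alike (-0.61 with median centring, -0.60 with loess). In RNA of whole larvae, fewer cells of a type and less RNA per cell cannot be told apart.

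**Figure D1:**
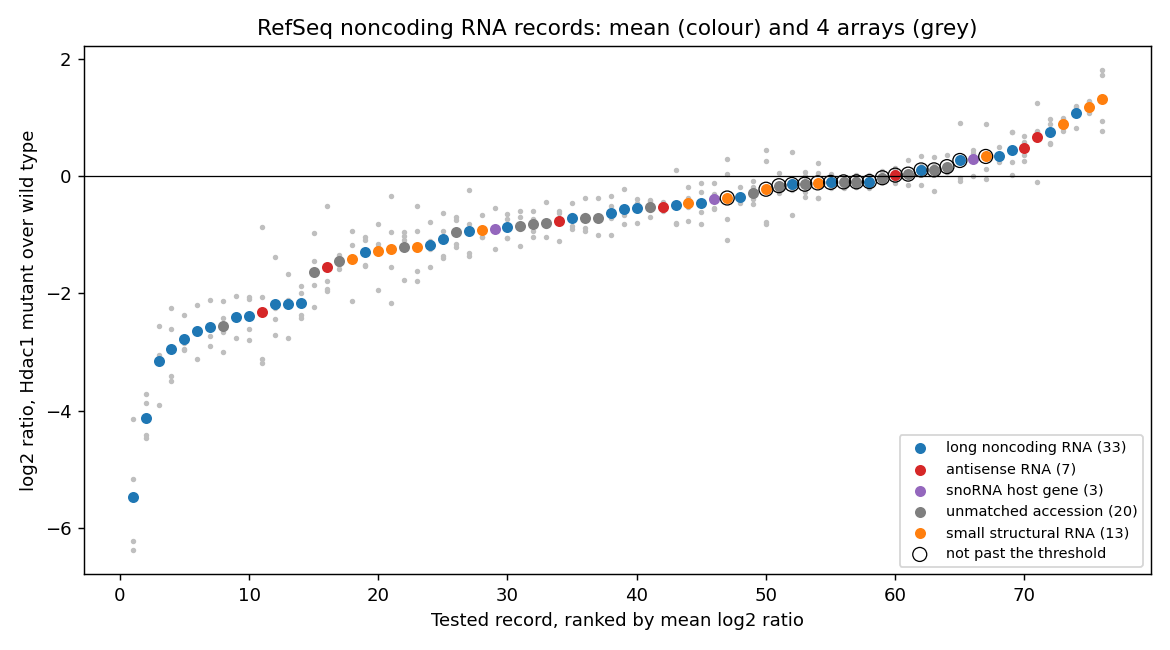
Log2 ratio of mutant over wild type of the 76 tested noncoding RNA records, in order of the mean over 4 arrays. Means are coloured by class of RNA, grey points are the arrays, and black rings mark records not past the threshold. The 48 records that fell take up the lower end, down to -5.48, and the 10 that rose end at 1.32.

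**Figure D2:**
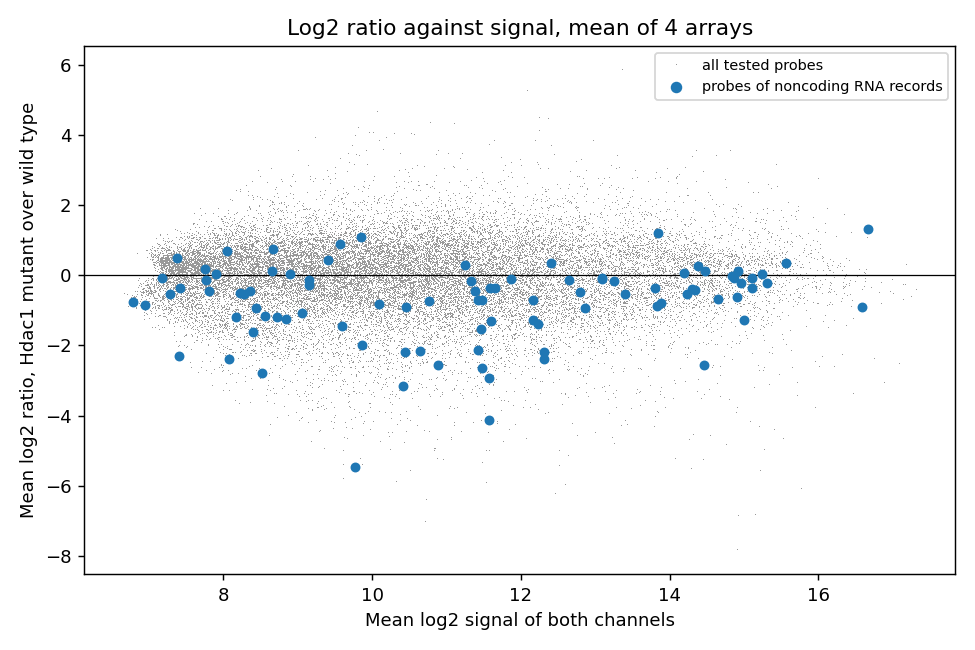
Mean log2 ratio of mutant over wild type against the mean log2 signal of both channels for all tested probes (grey) and for the tested probes of noncoding RNA records (blue). Noncoding probes below 0 are found at dim, intermediate and bright signals.

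Of 5 records of spliceosomal small nuclear RNAs, 4 were lower and 1 was higher, where 37.5% of all identifiers were lower and 38.1% higher. snRNA:U1:21D encodes a copy of U1, which pairs with the 5′ splice site. Its log2 signals in the mutant were 17.39, 17.46, 17.27 and 17.29 on replicates 1 to 4, against 15.57, 16.68, 15.54 and 16.34 in the wild type. The genotypes did not overlap, and the rise was 2.49-fold (log2 ratio 1.32 ± 0.53, SD, n = 4, limma adjusted p = 8.59e-05). With median centring its log2 ratio was 2.32. The record of another U1 copy, snRNA:U1:82Eb, went the other way: its log2 ratios on replicates 1 to 4 were -0.33, -1.54, -0.95 and -2.17 (mean -1.25 ± 0.79, adjusted p = 0.000942). The probe of snRNA:U1:82Eb was far dimmer, with mean log2 signals of 8.21 in the mutant and 9.46 in the wild type. Those of snRNA:U1:21D were 17.35 and 16.03, so the 2 records are not equal measurements of U1. U1 gene copies are near-identical in sequence, and which copies each of these probes reads was not tested.

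U2, which pairs with the branch point of introns, was represented by snRNA:U2:34ABb. Its log2 signals were 14.61, 14.32, 14.45 and 14.12 in the mutant, against 15.43, 16.25, 15.65 and 15.27 in the wild type. Each mutant signal was below every wild type signal, and the log2 ratio was -1.28 ± 0.47 (limma adjusted p = 6.06e-05) with loess and -0.49 with median centring. U2 also has several gene copies. The minor spliceosome removes a rare class of introns. Both of its small nuclear RNAs that had a matched record here, U12 and U11, were lower. U12 had log2 ratios of -0.50, -1.61, -0.93 and -1.78 (mean -1.20 ± 0.59, adjusted p = 0.000277), and U11 had -0.18, -0.53, -0.37 and -0.76 (mean -0.46 ± 0.24, adjusted p = 0.00523). Replicate 1 gave the smallest fall for U1:82Eb, U2, U12 and U11 alike.

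The 7SL record, 7SLRNA:CR32864, belongs to the RNA core of the signal recognition particle, which targets secreted proteins to the endoplasmic reticulum. Its log2 signals were 11.94, 11.73, 11.50 and 10.94 in the mutant, against 12.88, 13.11, 12.68 and 13.07 in the wild type, without overlap. The fall was 2.65-fold (log2 ratio -1.41 ± 0.52, limma adjusted p = 4.99e-05), and near-identical 7SL copies may share this signal. RNaseMRP:RNA, the RNA of a ribonuclease that cleaves the ribosomal RNA precursor, had log2 signals of 16.08, 16.14, 16.18 and 16.09 in the mutant, against 16.74, 17.18, 17.14 and 17.13 in the wild type. Its log2 ratio was -0.92 ± 0.18 (adjusted p = 3.53e-05) with loess, but with median centring it was 0.06 and no longer called.

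Of 4 small nucleolar RNA records, 1 rose and 3 did not pass the test. snoRNA:Psi28S-2566, named for a pseudouridine site of 28S ribosomal RNA, overlaps the gene CG3902. It had log2 signals of 9.71, 10.21, 10.14 and 9.92 in the mutant, against 8.71, 9.25, 9.37 and 9.09 in the wild type, a rise of 1.86-fold without overlap (log2 ratio 0.89 ± 0.11, limma adjusted p = 2.58e-05). The 2 records of U3, which is needed for early cleavage of the ribosomal RNA precursor, had log2 ratios of -0.11 ± 0.30 for snoRNA:U3:9B and -0.22 ± 0.67 for snoRNA:U3:54Aa (adjusted p = 0.442 and 0.358). With median centring these were 0.25 and 0.59, with snoRNA:U3:54Aa called higher, so the data give no stable direction for U3. snoRNA:Psi28S-291, which overlaps the ribosomal protein gene RpL3, had -0.37 ± 0.64 (adjusted p = 0.124), and was called lower without replicate 3 (-0.59).

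The guide RNA scaRNA:MeU5-C46, named for a methylation site of U5, had a log2 ratio of 0.34 ± 0.41 (limma adjusted p = 0.061). It was called higher with median centring (0.73), with the scanner software's log ratio (0.44), without replicate 3 (0.41) and without replicate 4 (0.47). sncRNA:158 is a small noncoding RNA that overlaps Msp300, the gene of a large nesprin protein of muscle. It gave log2 signals of 14.45, 14.36, 14.52 and 14.46 in the mutant, against 13.17, 13.23, 13.24 and 13.38 in the wild type. The replicates were close in both genotypes, and the rise was 2.28-fold (log2 ratio 1.19 ± 0.10, adjusted p = 3.74e-06), with a log2 ratio of 1.79 under median centring. Over the 13 structural records from the small nuclear RNAs to sncRNA:158, 6 were lower, 3 higher and 4 neither, with a median of -0.37. The array's shares were 37.5% lower and 38.1% higher, and counts out of 13 do not set these records apart from it.

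The Uhg genes are hosts whose introns hold small nucleolar RNAs and whose spliced exons encode no known protein. Uhg2 fell by 0.90 ± 0.29 on the log2 scale, with -0.53, -0.89, -0.93 and -1.23 on replicates 1 to 4 (limma adjusted p = 0.000112). Uhg3 had a log2 ratio of -0.38 ± 0.21 (adjusted p = 0.0116), and its call was lost with median centring (-0.03) and without replicate 2 (-0.32). Uhg5 had log2 ratios of 0.45, 0.40, 0.32 and -0.00 (mean 0.29 ± 0.20, adjusted p = 0.035), and its call was lost without replicate 1 (0.24), without replicate 2 (0.26) and without replicate 3 (0.28). The call for Uhg2 was kept under every alternative tried.

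**Figure D3:**
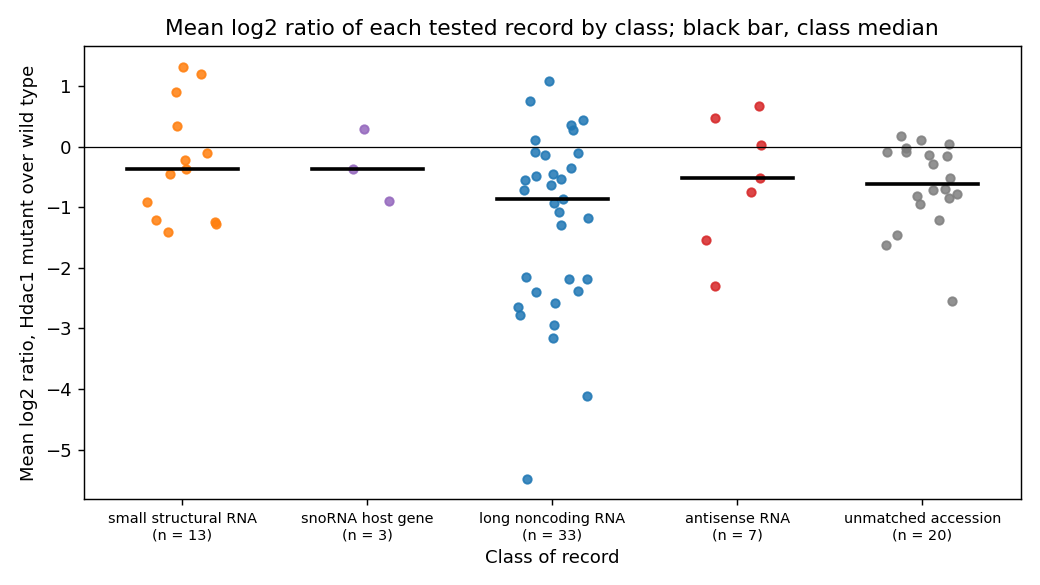
Log2 ratio of mutant over wild type of the tested records by class of RNA, 1 point per record with the class median as a line. Long noncoding RNAs reach from -5.48 to 1.08 with a median of -0.87. The 13 small structural RNAs, drawn as 1 class, reach from -1.41 to 1.32 with a median of -0.37.

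The roX RNAs are parts of the male dosage compensation complex, which acts on the X chromosome, and in flies their level is a male marker. With loess both records of roX2 and both of roX1 fell, but with median centring neither record of roX1 was called lower. For roX2 the brighter record (NR_002105) had log2 signals of 11.65, 11.23, 10.89 and 11.08 in the mutant, against 13.03, 13.66, 13.13 and 13.78 in the wild type. The genotypes did not overlap, and the fall was 4.56-fold (log2 ratio -2.19 ± 0.57, limma adjusted p = 4.12e-06). The other record of roX2 had log2 ratios of -0.79, -1.55, -1.11 and -1.25 (mean -1.17 ± 0.32, adjusted p = 2.45e-05).

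For roX1 the changes were smaller. The record NR_002098 had log2 signals of 14.74, 14.42, 14.47 and 14.75 in the mutant, against 15.08, 15.42, 14.97 and 15.46 in the wild type, without overlap. Its log2 ratio was -0.63 ± 0.29 (limma adjusted p = 0.0011) with loess but 0.13, and not called, with median centring. The record NR_002097 of roX1 had 0.11, -0.81, -0.47 and -0.80 (mean -0.49 ± 0.43, adjusted p = 0.0151), and its call was lost with median centring (-0.05), without replicate 2 (-0.39) and without replicate 4 (-0.39). The direction of roX1 thus rests on the scaling, and that of roX2 was the same under all alternatives. The sex of the larvae is not labelled, and its part in these values was not tested.

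Hsromega, a nuclear RNA induced by heat shock that organises omega speckles, had 2 records that did not move alike. NR_002068 had log2 ratios of 0.35, 0.50, 0.25 and 0.30 (mean 0.35 ± 0.11, limma adjusted p = 0.00963). Its call was lost without replicate 2 (0.30) and as the mean over its probes (0.23), and its log2 ratio was 1.21 with median centring. NR_002067 had -0.09 ± 0.09, and 0.70 with median centring, where it was called higher. The alphagamma element record, lncRNA:alphagamma-element:CR32865, lies between the heat-shock genes Hsp70Ba and Hsp70Bbb. It had log2 signals of 9.20, 9.00, 8.87 and 9.13 in the mutant, against 8.22, 8.44, 8.30 and 8.23 in the wild type, without overlap (log2 ratio 0.75 ± 0.22, adjusted p = 0.000197).

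The largest falls were those of long noncoding RNAs known only by CR numbers, for which no role is given here. Of 33 long noncoding records tested, 24 fell, 4 rose and 5 did not pass the test, with a median of -0.87. Among all identifiers, 37.5% were lower and 38.1% higher. Falls of at least 2-fold numbered 15, and 12 of those were of at least 4-fold, against 16.3% and 4.87% of all identifiers. lncRNA:CR33948 had log2 signals of 7.47, 6.23, 7.41 and 6.94 in the mutant, against 11.61, 11.41, 13.63 and 13.32 in the wild type. Its wild type signals were far above those of the mutant on every array, and 2 of the 4 mutant arrays were well above background. The log2 ratio of the measured signals was -5.48 ± 1.04 (limma adjusted p = 3.15e-07), and -7.08 in the scanner software's log ratio. With 2 mutant arrays at background, the size of this fall is not precise.

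lncRNA:CR33938 lies between the cuticle protein genes Ccp84Ac and Ccp84Ab. Its log2 signals were 9.58, 9.48, 9.27 and 9.73 in the mutant, against 13.30, 13.95, 13.14 and 14.14 in the wild type, a 17.4-fold fall (log2 ratio -4.12 ± 0.38, limma adjusted p = 2.83e-08). lncRNA:CR42836 had 9.26, 8.40, 8.68 and 9.05 in the mutant, against 12.31, 12.31, 11.24 and 12.17 in the wild type, an 8.94-fold fall (adjusted p = 3.69e-07). Both records were well separated between the genotypes on all arrays. lncRNA:CR42746, which overlaps the growth regulator gene bun, had 7.86, 7.09, 6.79 and 6.87 in the mutant, against 10.24, 10.04, 9.75 and 9.71 in the wild type. Its log2 ratio was -2.78 ± 0.28 (adjusted p = 9.62e-08) and -3.77 in the scanner software's log ratio, and the mutant was above background on 3 of 4 arrays.

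A further 5 of the deep falls were at X-linked long noncoding RNAs other than roX2. lncRNA:CR32690 had log2 signals of 10.70, 9.81, 9.82 and 10.08 in the mutant, against 12.96, 13.30, 12.43 and 13.49 in the wild type, a 7.69-fold fall (log2 ratio -2.94 ± 0.61, limma adjusted p = 8.46e-07). Its neighbour in the gene table is the protein-coding gene Ypel. A cDNA clone probe paired with Ypel by clone name was also lower, by a log2 ratio of -2.13 ± 0.29 (adjusted p = 4.09e-07). The pairing was not checked by sequence. lncRNA:CR42767 had 10.91, 10.08, 9.77 and 9.93 in the mutant, against 13.11, 12.69, 12.41 and 13.05 in the wild type, a 6.24-fold fall (adjusted p = 2.63e-07). Neither record overlapped between the genotypes.

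lncRNA:CR32657 and lncRNA:CR32658 are next to each other on the X chromosome, and both overlap Ten-a, the gene of a teneurin cell-surface protein of synapses. lncRNA:CR32657 had log2 signals of 10.10, 9.35, 9.34 and 9.59 in the mutant, against 12.22, 12.07, 11.91 and 12.49 in the wild type (log2 ratio -2.58 ± 0.33, limma adjusted p = 2.17e-07). lncRNA:CR32658 had 10.99, 11.16, 11.12 and 11.19 in the mutant, against 13.04, 13.58, 13.48 and 13.95 in the wild type (log2 ratio -2.40 ± 0.29, adjusted p = 2.28e-07). By the brightest probe of each, the falls were 5.96-fold and 5.27-fold; the difference between the genes was not tested, and another probe of lncRNA:CR32658 gave a log2 ratio of -1.29. lncRNA:CR32661 had 9.71, 9.18, 9.18 and 9.37 in the mutant, against 11.38, 11.37, 11.29 and 12.12 in the wild type (log2 ratio -2.18 ± 0.44, adjusted p = 1.35e-06).

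**Figure D4:**
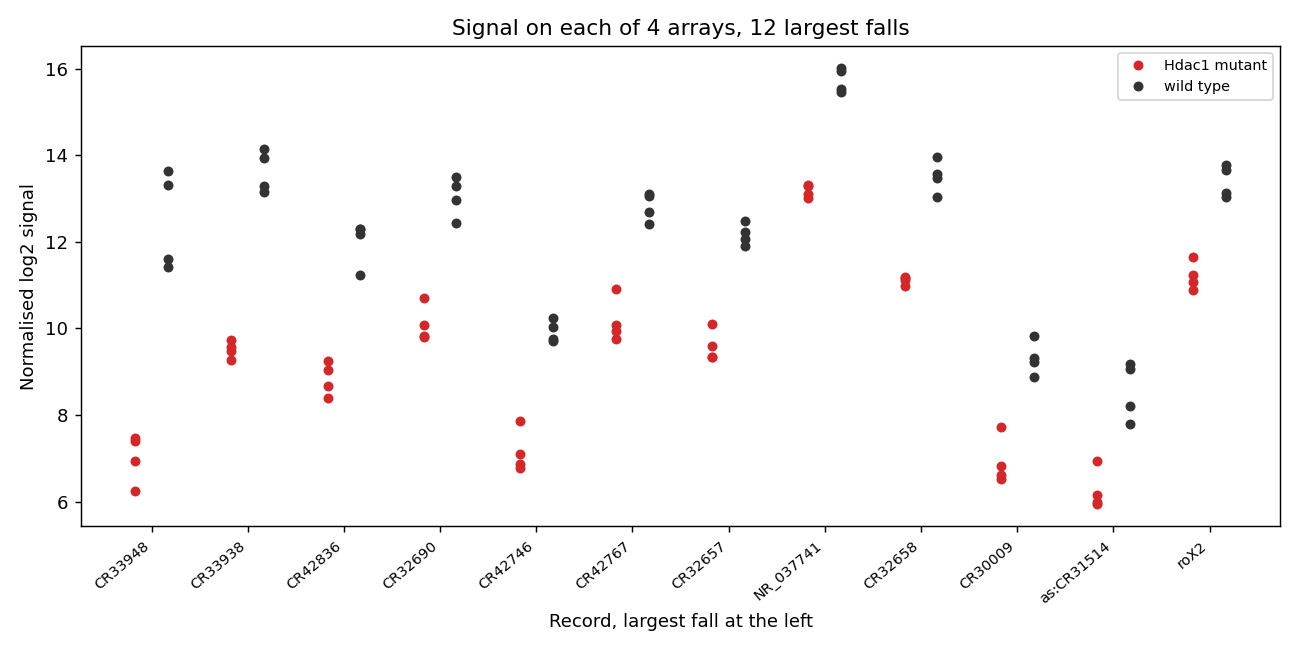
Log2 signals, after normalization, of the records with the largest falls, with the 4 mutant arrays left of the 4 wild type arrays for each record. In each of these records the mutant signals lie below all wild type signals.

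On the autosomes lncRNA:CR31044 is the transcript that carries the microRNAs mir-279 and mir-996. Its record NR_037769 had log2 ratios of -1.87, -2.41, -1.99 and -2.37 (mean -2.16 ± 0.27, limma adjusted p = 3.26e-07). The other record, NR_037768, had -0.36 ± 0.12 (adjusted p = 0.00875). That call was lost without replicate 3 (-0.33), and the log2 ratio was -1.15 in the scanner software's values. lncRNA:CR30009 likewise had a deep and a shallow record. NR_037738 had log2 signals of 7.72, 6.81, 6.62 and 6.52 in the mutant, which was above background on 1 array, against 9.82, 8.87, 9.23 and 9.31 in the wild type (log2 ratio -2.39 ± 0.37, adjusted p = 4.07e-07, and -3.89 in the scanner software's values). NR_001708 had -0.55 ± 0.25 (adjusted p = 0.00188), and a cDNA clone paired with the same gene by clone name had -0.85 ± 0.27 (adjusted p = 0.000136).

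Other long noncoding RNAs fell by less. lncRNA:CR42549, which overlaps the gene mura, had a log2 ratio of -1.29 ± 0.26 (limma adjusted p = 7.4e-06). lncRNA:CR30055 overlaps Sin3A, the gene of the corepressor that binds histone deacetylases, and had -1.08 ± 0.37 (adjusted p = 7.15e-05). lncRNA:CR33942 had -0.93 ± 0.53 (adjusted p = 0.000883). For these 3 records the call was kept under every alternative tried. lncRNA:CR42839, between the GATA factor genes srp and GATAe, had -0.45 ± 0.31 (adjusted p = 0.0102).

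With median centring the calls were lost for lncRNA:CR42646 (-0.87 ± 0.21 with loess, -0.27 with that centring) and for lncRNA:CR33963, which overlaps Tis11 (-0.71 ± 0.20 with loess, -0.34 with that centring). lncRNA:CR33987, which overlaps the gene tio, reached well above background on 0 of the 4 mutant arrays. Its measured signals were 1.46-fold lower in the mutant (log2 ratio -0.54 ± 0.18, limma adjusted p = 0.00118), a ratio whose mutant side was not well above background. In the antisense and unmatched records, "at least" sets the brighter genotype's mean against the dimmer one's, where each array of the dimmer genotype counts with its own signal or with the lowest signal well above background, whichever is higher. Dye bias can move such a value.

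The 4 long noncoding records that rose were lncRNA:CR42859, the alphagamma element, yar and NR_002068 of Hsromega. lncRNA:CR42859 overlaps CG4267 and had log2 signals of 9.99, 10.50, 10.30 and 10.76 in the mutant, against 9.17, 9.30, 9.19 and 9.57 in the wild type, a 2.12-fold rise without overlap (log2 ratio 1.08 ± 0.17, limma adjusted p = 1.13e-05). The record of yar, an RNA of the interval between yellow and achaete that has been tied to sleep, had log2 ratios of 0.75, 0.75, 0.02 and 0.25 (mean 0.44 ± 0.37, adjusted p = 0.0161). Its rise was carried by replicates 1 and 2, and the call was lost without replicate 1 (0.34) and without replicate 2 (0.34).

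Among the long noncoding records that did not pass the test, sphinx, a young chimeric gene on chromosome 4 tied to male courtship, had log2 ratios of 0.92, 0.29, -0.09 and -0.04 (mean 0.27 ± 0.46, limma adjusted p = 0.15). It was called higher with median centring (0.95). lncRNA:CR32218 overlaps Mi-2, the gene of the NuRD remodeller, and had -0.10 ± 0.10 with loess and 0.38 with median centring. lncRNA:CR32385, at Galphai, had -0.14 ± 0.45 and turned sign without replicate 3 (0.04). These records have no settled direction.

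Of 7 antisense records tested, 4 fell, 2 rose and 1 did not pass the test, with a median of -0.52. With 37.5% of all identifiers lower and 38.1% higher, counts out of 7 do not set this class apart from the array. asRNA:CR31514 overlaps the ribosomal protein gene RpS29 and the gene CG12947, and 0 of the 4 mutant arrays showed it well above background. Its log2 signals were 6.93, 5.99, 6.16 and 5.93 in the mutant, against 7.79, 9.18, 8.21 and 9.06 in the wild type, and it was lower by at least 4.22-fold (limma adjusted p = 0.000112). A cDNA clone probe paired with RpS29 by clone name, above background on 1 of 4 mutant arrays, had a log2 ratio of -0.74 ± 0.32. Its mean log2 signals were dim, 7.07 in the mutant and 7.82 in the wild type. The pairing was not checked by sequence, so the level of RpS29 is not settled by this probe. asRNA:CR31144 overlaps RpL3, another ribosomal protein gene, and had log2 ratios of -1.79, -0.50, -1.93 and -1.95 (mean -1.54 ± 0.70, adjusted p = 0.00012), with replicate 2 apart from the others. The strand that each probe reads was not checked, so a record and the gene it overlaps may share signal.

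asRNA:CR42742, over the mesoderm factor gene twi, was above background on 0 of 4 mutant arrays and 3 of 4 wild type arrays, and was lower by at least 1.65-fold (limma adjusted p = 0.000225). asRNA:CR42738 had a log2 ratio of -0.52 ± 0.07 (adjusted p = 0.000843). asRNA:CR42860 overlaps sls, the gene of a titin-like muscle protein, and had log2 ratios of 1.25, 0.77, -0.09 and 0.76 (mean 0.67 ± 0.56, adjusted p = 0.00744). Its call was lost with median centring (0.37) and without replicate 4 (0.64), and its value was 1.30 in the scanner software's log ratio. asRNA:CR42871 had log2 signals of 7.49, 7.70, 7.51 and 7.75 in the mutant, against 7.13, 7.12, 7.24 and 7.07 in the wild type, where it was above background on 0 arrays. Its measured log2 ratio was 0.48 ± 0.19 with loess (adjusted p = 0.00288), but -0.10 and not called with median centring, so its direction is not settled. A probe of endos, its neighbour in the gene table, gave log2 ratios of -1.42, -1.16 and -1.57 on replicates 2 to 4, the arrays that measured it. asRNA:CR42547 had 0.02 ± 0.13 (adjusted p = 0.863), and was called lower with median centring (-0.39).

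Of the 24 accessions without a match, 20 were tested: 12 fell, 0 rose and 8 did not pass the test, with a median of -0.61 and a range from -2.55 to 0.17. The shares over all identifiers were 37.5% lower and 38.1% higher. NR_037741 fell most, with log2 signals of 13.02, 13.32, 13.11 and 13.30 in the mutant, against 16.02, 15.46, 15.54 and 15.95 in the wild type. The genotypes were far apart on all arrays (log2 ratio -2.55 ± 0.37, limma adjusted p = 2.88e-07, and -1.86 with median centring). NR_002468 had -1.63 ± 0.54 (-2.25 in the scanner software's values), NR_037734 had -1.45 ± 0.11 and NR_002483 had -1.21 ± 0.38 (-1.81 in the scanner software's values). NR_001600 was lower by at least 1.76-fold. The calls of NR_037720, NR_037721 and NR_037731 were lost with median centring (-0.37, -0.36 and -0.18), and so was that of NR_001953 (-0.52 with loess, 0.15 with median centring). NR_002478 (-0.28) passed the test by little and lost its call under 7 of the 12 alternatives. With median centring NR_001662 (0.85) and NR_002021 (0.73) were called higher and NR_026652 (-0.80) and NR_037755 (-0.57) lower, and none of these passed with loess.

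Several records had more than 1 probe, and the probes of a gene often differed in size. Within genes, 14 of 23 probe pairs of noncoding records had log2 ratios that differed at an adjusted p under 0.05 in limma, against 59.0% of all such pairs on the array. The median absolute difference was 0.35 for both. The probes of a pair had the same sign in 14 of the 23 (60.9%), against 74.3% of all pairs, a difference that was not tested. All pairs of a gene share its brightest probe, so they are not independent. Most of the pairs with unlike signs came from lncRNA:CR42862 and Hsromega. Both probes of lncRNA:CR30009 were below 0, at -2.39 and -0.55 (difference -1.84 ± 0.56, adjusted p = 0.000668). For lncRNA:CR31044 the probes stood at -0.36 and -2.16 (difference 1.80 ± 0.35, adjusted p = 0.000151), and for roX2 at -1.17 and -2.19 (difference 1.01 ± 0.37, adjusted p = 0.00169). Each probe of these 3 genes was below 0, though the call of the shallower one of lncRNA:CR31044 was lost without replicate 3 and the deeper one of lncRNA:CR30009 was above background on 1 mutant array.

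The probes of roX1 lay closer together, at -0.67, -0.63, -0.49 and -0.41, and none of their differences was called (adjusted p between 0.115 and 0.724). lncRNA:CR32658 had 3 probes, at -1.29, -2.13 and -2.40, and both of the first 2 differed from the last (by 1.11 ± 0.23, adjusted p = 0.000274, and by 0.27 ± 0.04, adjusted p = 0.0109). lncRNA:CR42646 had probes at -0.15 and -0.87 (difference 0.72 ± 0.19, adjusted p = 0.000985). Hsromega had probes at 0.35, 0.11, -0.09 and -0.23, on both sides of 0. The 5 probes of lncRNA:CR42862 ran from 0.11 through -0.09, -0.36 and -0.43 to -0.54, so that its direction depended on the probe: the brightest gave 0.11 ± 0.21, which was not called with loess, and the mean over probes gave -0.26, which was called lower. With median centring NR_037746, its brightest probe's record, was called higher (0.88). Transcript forms and positions of the probes were not analysed here.

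**Figure D5:**
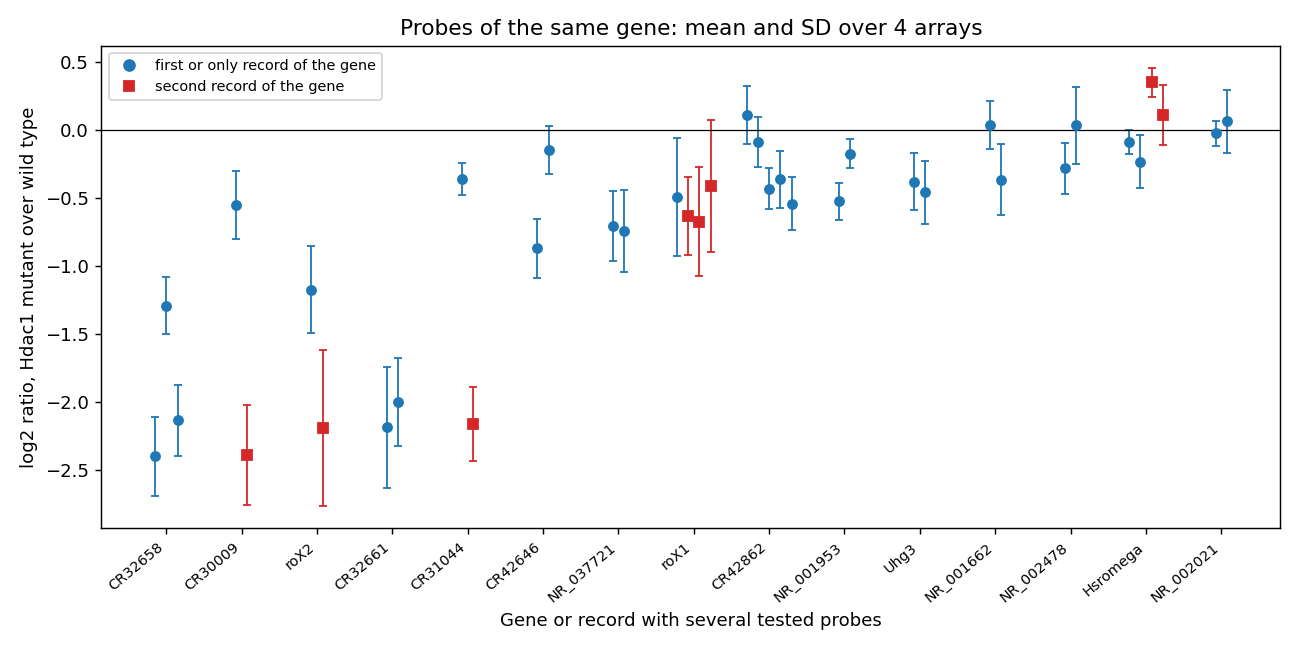
Mean log2 ratio of mutant over wild type of each tested probe of the genes with several probes, with a bar for the SD over 4 arrays. The probes of roX1 lie between -0.67 and -0.41, those of Hsromega on both sides of 0, and those of lncRNA:CR30009 and lncRNA:CR31044 far apart.

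By chromosome, 10 of the 12 tested records on the X fell and 1 rose, with a median of -1.68, and 6 of the falls were of at least 4-fold. Without the records of roX1 and roX2, 6 of the 8 others fell, 1 rose (yar), and the median was -2.29. On the other chromosomes, 26 of 44 records fell and 9 rose, with a median of -0.49. Among all identifiers of the array, 37.5% were lower, 38.1% were higher and 4.87% were lower by at least 4-fold. Of 7 protein-coding (NM_) records on the X that could be matched, 1 was lower and 3 were higher, with a median of 0.18. Several of the X-linked noncoding records lie beside each other or belong to 1 gene, and the difference between the chromosomes was not tested.

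On single autosomal arms, 3R had 12 of 17 records lower and 2 higher, 2R had 6 of 9 lower and 1 higher, 2L had 5 of 8 lower and 3 higher, and 3L had 3 of 9 lower and 3 higher. The array's shares were 37.5% lower and 38.1% higher, so the counts on 3L and the rises on 2L lie near them.

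Another 11 records were not tested, since their probes were too dim, and for 10 of them no array was above background in either genotype. Among these were bxd, an RNA from upstream of the homeotic gene Ubx (log2 ratio -0.28 ± 0.17), the record of lncRNA:Yu, asRNA:CR33945, asRNA:Eig63F-2, asRNA:CR42743, lncRNA:CR32730 and lncRNA:CR40465. Their levels were not detectable at this signal. At the other end, 65 of the 87 records were well above background in both genotypes on all 4 arrays.

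Of the 48 lower records, 47 were below 0 on all 4 arrays, and of the 10 higher records 8 were above 0 on all 4. Over all tested noncoding records 75% had 1 sign on the 4 arrays, against 80.9% of all identifiers. The arrays differed in depth of the fall: over the 48 lower records the median log2 ratio was -0.74, -1.13, -0.95 and -1.27 on replicates 1 to 4. Replicate 1 was the least negative for 34 of them. Without replicate 1, 48 records were lower and 8 higher, and without each of the others between 45 and 47 were lower and between 7 and 10 higher.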

How the data were processed

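Agilent Feature Extraction 10.5.1.1 read the images, per the file headers. From the deposited files, the intensity columns used were the median pixel intensities of each spot and of its local background in the red (mutant) and green (wild type) channel. The scanner's deposited log10 ratio (red to green), background-subtracted and dye-normalized by the scanner software per the file headers, served as an alternative. The authors' table of processed values held the same log10 ratios (largest difference 0) and added no measurement. The deposited marks for spots well above background and non-uniform spots were used as filters.

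With limma 3.58.1 in R 4.3.3, intensities were background-corrected by normexp with an offset of 50 and log2 ratios were normalized by loess within each array, with control and non-uniform spots at weight 0. Control spots and the 27 to 83 non-uniform spots per array were then dropped, and repeated spots of a probe were averaged. Testing needed a channel in which 3 or more of the 4 arrays were well above background, which 27735 of 32171 probes had. The mean log2 ratio was tested against 0 with lmFit and eBayes, as a two-sided test, and p-values of all tested probes were adjusted together by Benjamini-Hochberg (threshold 0.05). A record was given by its brightest tested probe. Log2 signals per channel are values after loess and Aquantile. Probe differences within a gene were tested in limma over all such pairs of the array, a test chosen after the data were seen.

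Names, classes, chromosomes and neighbours came from the RefSeq gene table of Release 6. The array was designed on an earlier assembly, so no coordinates are given, and sequences were not analysed here. Of 41 marker genes listed for tissues and sex, 3 could be paired with a probe: roX1, roX2 and the gut lysozyme gene LysE, which had a log2 ratio of 2.51 ± 0.47. Other tissue markers were not analysed here. The rule for named records took up to 12 of the largest rises and up to 12 of the largest falls past the threshold with 1 sign on all arrays, the structural classes, roX1, roX2, Hsromega and bxd, records with probes of unlike sign and records above background in 1 genotype only. Only 8 rises met the rule, so all of them were named, and 12 falls were taken. Other records were named as members of their class. The members, lists and rules were chosen with earlier results of these data known.

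The fit was tested on simulated data for 27679 probes and recovered 7.46% of 67 changes of 0.5, 71.6% of 67 changes of 1 and 92.4% of 66 changes of 2 on the log2 scale, and 3.39% of its calls were false. Only 200 of the simulated probes were changed, whereas 37.9% of the real probes were called lower and 37.6% higher. The adjustment was thus harsher in the simulation, so these rates do not describe recovery in the data. The 12 alternatives changed the background correction, the normalization, the filter, the probe summary or the unit of the fit, or left out 1 replicate. The number of arrays limits the precision.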

Additional observations from a re-analysis of the deposited data

Results flagged for a closer look

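For 2 of the 76 tested records, 1 array stood apart from the other 3 by more than the 95% critical value of Dixon's test, where chance gives about 3.8 in 76. The accession NR_002483, without a match in the gene table, had a log2 ratio of -1.76 on replicate 4 and of -1.09 to -0.96 on the others. asRNA:CR31144, which overlaps RpL3, had -0.50 on replicate 2 and -1.95 to -1.79 on the others. Both stayed below 0 on every array.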

How the results depend on the processing

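Over 12 alternatives, between 40 and 50 noncoding records were lower and between 7 and 15 higher, and the median ran from -0.74 to -0.46. Of the 48 lower records 36 kept their call under all of them, and of the 10 higher records 5 did. No called record was called in the opposite direction (0 of 58). The sign turned with median centring in place of loess for NR_002021 (0.73, against -0.02), NR_001953 (0.15), NR_002490 (0.19), NR_026653 (-0.24), NR_037765 (0.40), NR_002067 of Hsromega (0.70), NR_002098 of roX1 (0.13), snoRNA:U3:9B (0.25), RNaseMRP:RNA (0.064), snoRNA:U3:54Aa (0.59), asRNA:CR42547 (-0.39), asRNA:CR42871 (-0.10) and lncRNA:CR32218 (0.38). With the scanner software's log ratio it turned for lncRNA:CR32385 (0.029), NR_002021 (0.078), snoRNA:U3:9B (0.013), NR_002490 (0.0088) and lncRNA:CR32218 (0.062). With the mean over probes it turned for NR_001662 (-0.16), NR_002021 (0.020) and lncRNA:CR42862 (-0.26), and for asRNA:CR42547 with an offset of 0 (-0.018) and without background correction (-0.0036). With 1 replicate left out the values spanned 0 for NR_001662 (-0.041 to 0.098), lncRNA:CR32385 (-0.32 to 0.037), NR_002021 (-0.062 to 0.0021) and asRNA:CR42547 (-0.018 to 0.064). The cause was not tested. Values moved by over 1.5 times for 13 called records with median centring, 12 with the scanner's values and 4 with an offset of 0. The test of the ratios within arrays is itself paired by replicate, and no other block was fitted. Dim records, near background in 1 genotype, have changes that depend on the background correction.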
